A study of Rattus norvegicus with 6 samples.

Results

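The genes described here are Cd22 and 8 other genes of the B cell receptor and of mature B cells (Cd79a, Cd79b, Ms4a1, Bank1, Blk, Blnk, Fcer2 and Cr2). They are 9 rows, taken by name, of a count table of 37203 genes measured in alveolar tissue, the jaw bone and soft tissue around the tooth roots, of rats. The genes were chosen because Cd22 and Bank1 stood higher in the case libraries, so that their differences between the groups are given as a description, with no test. The study asked how bone around moved teeth remodels with and without corticision, a surgical cut into the cortical bone that is meant to hasten orthodontic tooth movement. There were 6 libraries of total RNA from rats whose teeth had been moved: those titled case 5, 6 and 9 and those titled control 5, 6 and 10. The source labels call the case group tooth movement without corticision and the control group tooth movement with it, which runs against the usual sense of the titles, and the labels do not settle which is right. Groups are therefore named by title, and each difference is case minus control. Strain, sex, age, force and time after surgery are not given in the labels used here, nor is it said that the libraries came from separate animals. P-values therefore reflect only how much these samples vary, which may be a technical spread.

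The B cell receptor is a membrane antibody held together with the signalling chains that Cd79a and Cd79b encode. When antigen binds, Src-family kinases such as Lyn and Blk phosphorylate these chains, the kinase Syk docks on them, and the adaptors encoded by Blnk and Bank1 pass the signal on. Cr2, the complement receptor CD21, belongs to a coreceptor complex that strengthens the signal. Cd22 is a lectin of the Siglec family that binds sialic acid and recruits the phosphatase encoded by Ptpn6, which restrains it. Fcer2 encodes the low-affinity IgE receptor CD23, and Ms4a1 encodes CD20. In rodents B cells form in bone marrow, and marrow lies within the jaw bone, so precursors and mature B cells can both contribute RNA to alveolar tissue.

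Promoter sequences are shown for Cd22 and Bank1, the 2 genes whose values led to this choice, and for Blnk, whose values ran differently. RefSeq's promoter table for the build GRCr8 held 5 of the 9 genes (Cd22, Cd79a, Bank1, Blnk and Cr2). Each line gives the 250 bases before the annotated start, 5′ to 3′ on the gene's own strand. Capitals mark matches, on either strand, to 3 motifs: the octamer ATGCAAAT bound by Oct factors, CCCNNGGG as a core of EBF sites, and AGGAAG as a core of ETS sites.
Cd22, chr1:95259731-95259980, minus strand: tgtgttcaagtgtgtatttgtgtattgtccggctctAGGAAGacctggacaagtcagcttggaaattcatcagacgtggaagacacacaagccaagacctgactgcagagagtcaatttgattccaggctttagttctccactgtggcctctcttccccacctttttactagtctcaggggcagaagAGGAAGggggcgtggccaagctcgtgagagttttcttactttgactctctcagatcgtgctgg
Bank1, chr2:227473716-227473965, minus strand: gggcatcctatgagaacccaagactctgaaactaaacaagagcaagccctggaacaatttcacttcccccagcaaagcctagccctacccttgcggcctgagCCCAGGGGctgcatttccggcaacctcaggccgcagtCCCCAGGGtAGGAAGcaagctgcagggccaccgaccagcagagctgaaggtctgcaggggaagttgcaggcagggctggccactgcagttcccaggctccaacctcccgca
Blnk, chr1:249770534-249770783, minus strand: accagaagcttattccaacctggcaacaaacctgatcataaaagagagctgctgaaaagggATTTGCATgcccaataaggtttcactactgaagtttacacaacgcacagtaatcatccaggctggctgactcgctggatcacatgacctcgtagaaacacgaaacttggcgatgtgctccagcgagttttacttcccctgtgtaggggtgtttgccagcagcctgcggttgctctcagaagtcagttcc
The Cd22 stretch held 2 ETS cores, and the Bank1 stretch held 2 EBF cores and 1 ETS core. The Blnk stretch held the octamer once, read on its other strand as ATTTGCAT. Among 33469 rat promoters of the same length, 1.56% held the octamer, 10.8% the EBF core and 29.5% the ETS core. A match of letters describes the sequence and is no evidence of binding.

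Library totals ranged from 10886303 to 14433740 counts, and a count of 0 allows for counting error up to 3 counts, or 0.2 to 0.274 CPM. CPM are counts divided by library size, scaled by the trimmed mean of M-values (TMM), so that libraries of unequal depth can be compared. Levels are compared between libraries and not between genes, since transcript lengths were not used here. The labelled tissue showed in its markers, as all 10 bone genes of a list were counted in every library, with summed levels of 90441 (case 5), 52632 (case 6) and 50677 (case 9) CPM, against 55867 (control 5), 80206 (control 6) and 79008 (control 10) CPM. Most of each sum was the collagen gene Col1a1, named after its values were seen. It had 74749, 38699 and 36039 CPM in case 5, 6 and 9, against 42630, 61669 and 60910 CPM in control 5, 6 and 10. The sums are therefore not read as amounts of bone. Both libraries numbered 5 also held tooth-forming cell markers, with a summed level of 459.6 CPM in case 5 and 89.8 CPM in control 5, against 0.64 to 7.79 CPM in the others. Oral epithelium markers reached 3506 CPM in control 5, against 14.0 to 44.8 CPM in the others. In edgeR's quasi-likelihood test 0 of 16066 tested genes passed a Benjamini-Hochberg adjusted p of 0.05, which is 0% called, while 666 (4.15%) had an unadjusted p under 0.05 and DESeq2 called 21 (0.131%).

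All 9 genes passed the filter on low counts. In 4 of them, Cd22, Ms4a1, Bank1 and Cr2, the 3 case libraries lay above the 3 control libraries, and in 0 did they lie below. Over all tested genes 4.05% lay wholly above in case and 4.42% wholly below. Since the genes were chosen on this contrast, nothing is read from that count. The median log2 fold change of the 9 genes was 0.78, against -0.02 over all tested genes, and 8 of 9 were positive, against 46.3% of all tested genes. The summed level of the 9 genes was 265.3, 199.6 and 173.1 CPM in case 5, 6 and 9, against 196.0, 184.0 and 88.3 CPM in control 5, 6 and 10, so the groups overlapped in total. This sum counts Cd79a by the row of that name only. It leaves out LOC100913063, taken below as the larger part of that gene, with 15.8 CPM in control 10 to 81.6 CPM in case 5. In bulk tissue, fewer B cells and less RNA per B cell cannot be told apart.

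**Figure D1:**
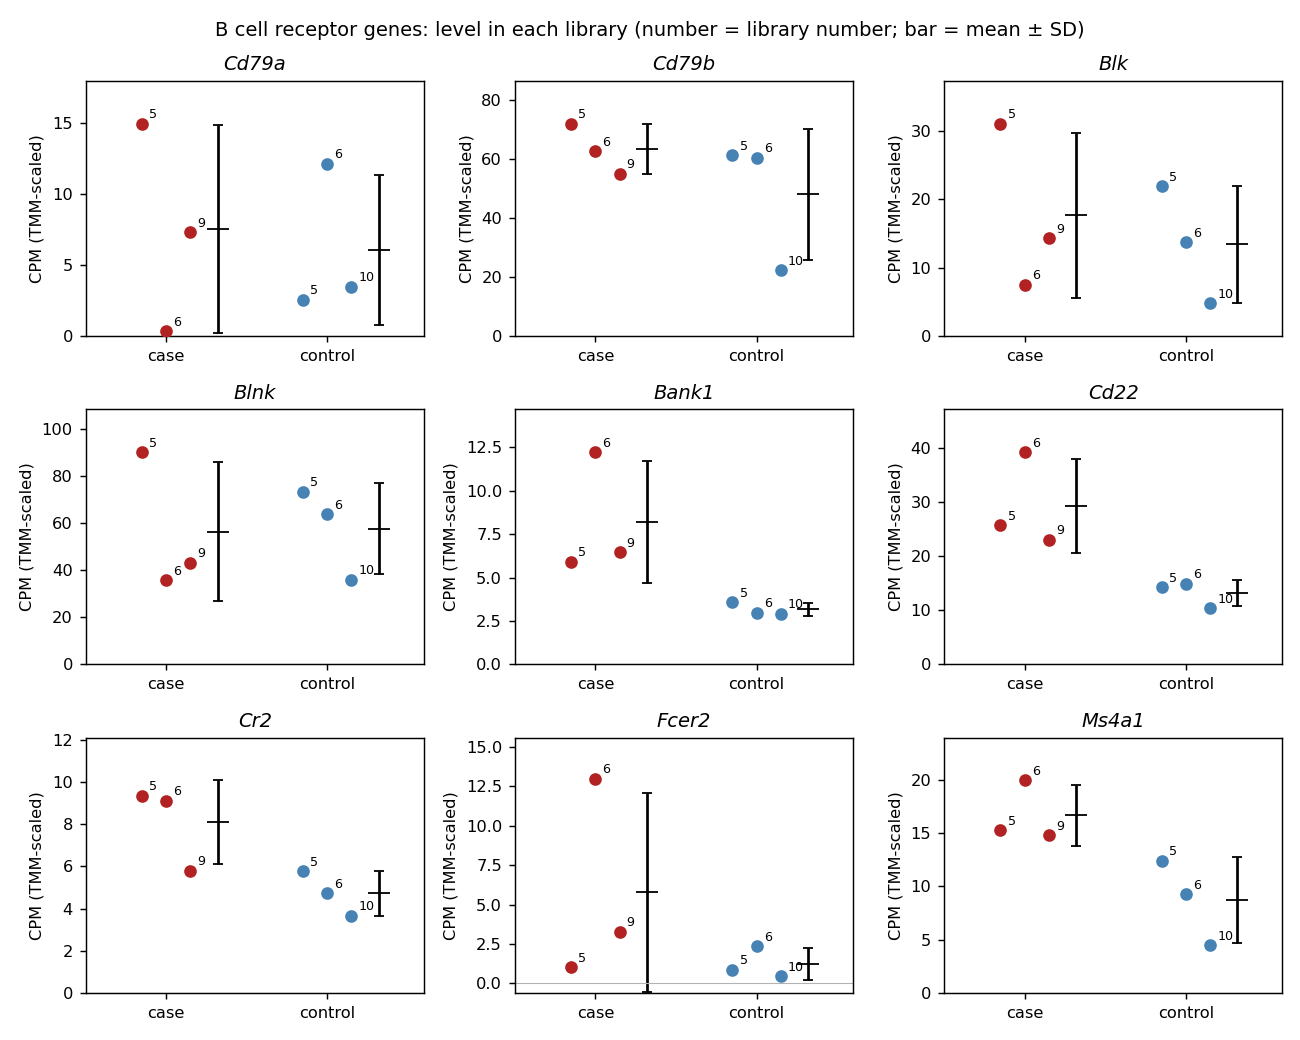
Level of each of the 9 genes in CPM (vertical axes, TMM-scaled) in the 3 case and the 3 control libraries, with the library number beside each point and the mean ± SD as a bar. Cd22, Ms4a1, Bank1 and Cr2 have all case points above all control points, while the other 5 genes overlap between the groups.

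Among the inhibitory and accessory surface receptors, Cd22 had 25.6, 39.2 and 23.0 CPM in case 5, 6 and 9, against 14.3, 14.9 and 10.3 CPM in control 5, 6 and 10. The lowest case library stood above the highest control library, and case 6 stood far above the other 2 case libraries. The mean was 29.3 ± 8.67 CPM over the case libraries and 13.2 ± 2.47 CPM over the control libraries (all errors of means are SD with n = 3). This was a log2 fold change of 1.15 (SE 0.26), or 2.23-fold. It rested on 113 to 589 counts per library. With case 6 left out the log2 fold change was 0.89, and with any other library left out it was 1.04 to 1.30.

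Cr2 had 9.35, 9.11 and 5.80 CPM in case 5, 6 and 9, against 5.78, 4.72 and 3.66 CPM in control 5, 6 and 10. Its groups only just failed to meet, between case 9 and control 5, and they overlapped when counts were scaled by library totals alone (5.89 CPM in case 9 against 6.10 CPM in control 5). The log2 fold change was 0.78 (SE 0.31). Ms4a1 had 15.3, 20.0 and 14.8 CPM in case 5, 6 and 9, against 12.4, 9.29 and 4.48 CPM in control 5, 6 and 10, a log2 fold change of 0.93 (SE 0.36). Control 10 was far below the other control libraries, and without it the value was 0.65.

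Fcer2 varied widely between case libraries, with an SD of 6.34 CPM about a mean of 5.76 CPM, and 1 library carried most of its difference. It had 1.04, 13.0 and 3.28 CPM in case 5, 6 and 9, against 0.875, 2.36 and 0.457 CPM in control 5, 6 and 10. Case 5 lay below control 6, so the groups overlapped. The log2 fold change of 2.21 (SE 0.96) dropped to 0.79 without case 6, a library that held 195 of the gene's counts while each of the others held 5 to 39.

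Among the signalling chains, Cd79b had 71.9, 62.6 and 55.0 CPM in case 5, 6 and 9, against 61.3, 60.3 and 22.3 CPM in control 5, 6 and 10. All case libraries lay close to control 5 and control 6, and control 10 alone was low. The mean was 63.2 ± 8.48 CPM in case and 48.0 ± 22.2 CPM in control, with a log2 fold change of 0.40 (SE 0.36) that was 0.09 without control 10.

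Cd79a was matched to a pair of rows. The gene ID that RefSeq gives to Cd79a in GRCr8 is the number in the row name LOC100913063, and Cd79al is listed as an older name. By this ID both rows are taken here to carry the gene. Whether the annotation used for counting held 1 or 2 loci was not checked, and the shares and sums below rest on that match. Among the other 8 genes none had such a further row. The row named Cd79a had 187, 5 and 87 counts in case 5, 6 and 9, against 29, 154 and 38 in control 5, 6 and 10, whereas LOC100913063 had 1021, 757 and 515 counts in case 5, 6 and 9, against 809, 570 and 173 in control 5, 6 and 10. The share of both rows' counts in the row named Cd79a was 15.5% in case 5 (95% Wilson interval 13.6 to 17.6%), 0.656% in case 6 (0.281 to 1.53%) and 14.4% in case 9 (11.9 to 17.5%). It was 3.46% in control 5 (2.42 to 4.93%), 21.3% in control 6 (18.4 to 24.4%) and 18.0% in control 10 (13.4 to 23.8%), where the intervals cover counting error only. The row named Cd79a thus held the smaller part in every library, and that part differed between libraries beyond counting error.

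Taken over both rows, Cd79a had 96.5, 50.7 and 50.6 CPM in case 5, 6 and 9, against 73.4, 57.0 and 19.3 CPM in control 5, 6 and 10. The near absence of the named row in case 6 (0.333 CPM) was therefore not seen in the sum, where case 6 and case 9 were alike and control 10 was the low library, as for Cd79b. The mean of the sum was 65.9 ± 26.5 CPM in case and 49.9 ± 27.7 CPM in control, with a log2 fold change of 0.40 (SE 0.48). The row named Cd79a alone averaged 7.53 ± 7.31 CPM in case and 6.04 ± 5.28 CPM in control and gave 0.31 (SE 1.06), a value that turned to -0.65 without case 5 and -0.06 without control 5, and was 1.35 without control 6. How reads were divided between the rows is not given in the sources used here.

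**Figure D2:**
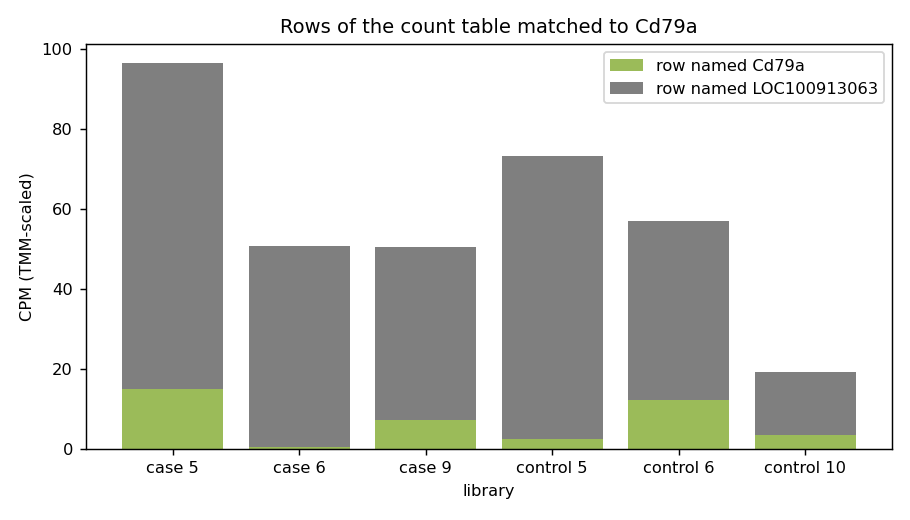
Stacked level in CPM (vertical axis, TMM-scaled) of the rows named Cd79a and LOC100913063 in each library, case libraries on the left. The row named Cd79a is the smaller part everywhere and almost absent in case 6, and the summed bars run from 19.3 CPM in control 10 to 96.5 CPM in case 5.

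Among the kinases and adaptors, Bank1 had 5.91, 12.2 and 6.47 CPM in case 5, 6 and 9, against 3.59, 2.99 and 2.92 CPM in control 5, 6 and 10. The control libraries lay close together, and case 6 was again the highest. The mean was 8.21 ± 3.50 CPM in case and 3.17 ± 0.366 CPM in control, a log2 fold change of 1.37 (SE 0.36), or 2.59-fold, which was 0.96 without case 6. The counts behind it were 74, 184 and 77 in case 5, 6 and 9, against 41, 38 and 32 in control 5, 6 and 10.

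Blk and Blnk did not share this order. Blk had 31.1, 7.52 and 14.3 CPM in case 5, 6 and 9, against 21.9, 13.7 and 4.75 CPM in control 5, 6 and 10. Blnk had 90.2, 35.7 and 43.1 CPM in case 5, 6 and 9, against 73.4, 63.7 and 35.9 CPM in control 5, 6 and 10. In both genes case 5 was the highest library and control 5 the next, while case 6, the top library for Cd22 and Bank1, was the lowest for Blnk and the second lowest for Blk. For Blnk, case 6 lay close to control 10, and with library totals alone control 10 was the lower (34.8 CPM against 37.2 CPM in case 6). The log2 fold changes were 0.39 (SE 0.64) for Blk and -0.03 (SE 0.40) for Blnk, and without case 5 they were -0.28 and -0.52. Blk without control 5 stood at 0.93, and without control 10 at 0.02. Blnk turned positive without case 6 (0.21), case 9 (0.13), control 5 (0.18) or control 6 (0.08).

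**Figure D3:**
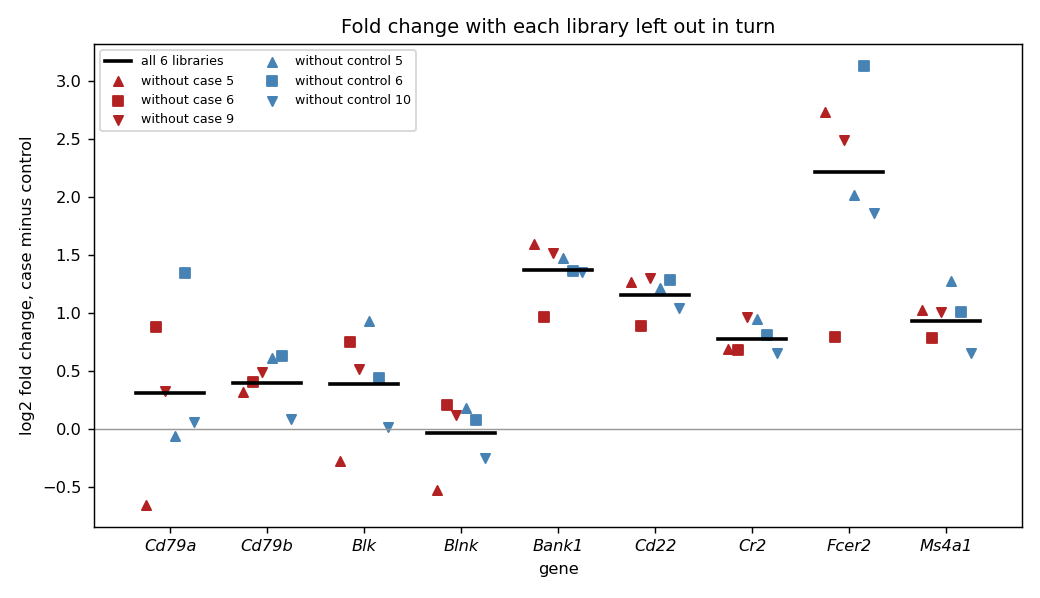
Log2 fold change, case minus control (vertical axis), of each gene with all 6 libraries (black bar) and with each library left out (symbols). Cd22, Bank1, Cr2 and Ms4a1 keep values of at least 0.65, Fcer2 drops to 0.79 without case 6, and Cd79a, Blk and Blnk have values on both sides of 0.

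The 9 genes thus differed in their order over libraries. Likeness to Cd22 was measured as the root mean square difference of mean-centred log2 CPM over the 6 libraries, among the 10769 others whose mean reached 5 CPM. This difference depends on the size of a gene's spread as well as on the order of its libraries. Rows whose names begin with LOC, RGD, AABR or AC0 were left out of this ranking. The 5 genes nearest to Cd22 were Hdc (0.194), which encodes histidine decarboxylase, Btla (0.199), an inhibitory lymphocyte receptor, Bank1 (0.201), Srebf1 (0.209), a regulator of lipid synthesis, and Ccr3 (0.222), a chemokine receptor of eosinophils and basophils. Of the other B cell receptor genes, Cr2 stood in place 14 and Ms4a1 in place 17, whereas Cd79b stood in place 530, Blnk in place 9366 and Blk in place 10221. Fcer2, with a mean below 5 CPM, was not ranked. The row named Cd79a stood in place 10692, but LOC100913063, which held the larger part of the counts taken as Cd79a, was left out by its name.

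**Figure D4:**
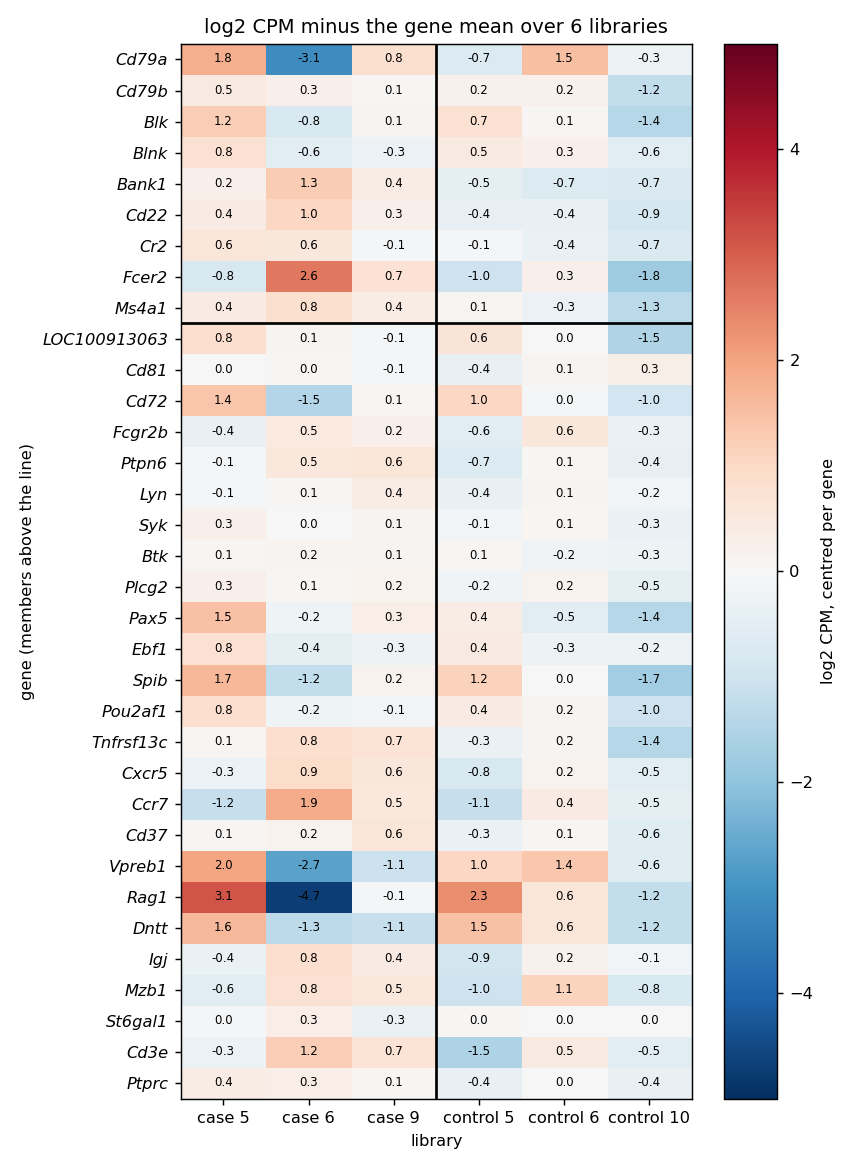
Log2 CPM of each gene minus its mean over the 6 libraries (colour and printed value), with the 9 genes above the line and other B cell, precursor, plasma cell and leukocyte genes below it, and case libraries on the left. Cd22, Bank1, Fcer2 and Ms4a1 are highest in case 6, while Blk, Blnk, Spib and the precursor genes Rag1, Vpreb1 and Dntt are highest in case 5.

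Ratios within a library, from which depth cancels, set each gene against Cd79b. Per 100 counts of Cd79b, Cd22 had 35.7, 62.6 and 41.9 counts in case 5, 6 and 9, against 23.3, 24.7 and 46.3 in control 5, 6 and 10. Control 10 lay above 2 of the case libraries, so the groups that stood apart in Cd22 level overlapped in this ratio. Bank1 behaved likewise, with 8.22, 19.6 and 11.8 counts per 100 of Cd79b in case 5, 6 and 9, against 5.86, 4.96 and 13.1 in control 5, 6 and 10. Ms4a1 had 21.2, 31.9 and 26.9 counts per 100 of Cd79b in case 5, 6 and 9, against 20.3, 15.4 and 20.1 in control 5, 6 and 10. These groups did not overlap, but case 5 and control 5 lay close together. The ratios of Cr2, Fcer2 and Blk overlapped between the groups, and for Cr2 control 10 (16.4) lay above all case libraries. For Blnk the ratio ran from 57.0 in case 6 to 125.4 in case 5, and from 105.6 in control 6 to 161.1 in control 10.

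The other genes of the pathway were taken from lists, beginning with the coreceptors and inhibitors at the cell surface. Of 10 tested members of the first list 9 had a positive log2 fold change, with a median of 0.37, and 0 passed edgeR's test in either direction; without control 10 the median was 0.21. Ptpn6, the phosphatase SHP-1 that Cd22 recruits, averaged 376.2 ± 90.7 CPM in case and 233.4 ± 63.4 CPM in control, with overlapping groups. Cd81, a tetraspanin of many cell types, was at 364.3 ± 16.5 and 381.8 ± 85.9 CPM in case and control, Fcgr2b, the inhibitory receptor for IgG, at 47.4 ± 13.8 and 41.8 ± 18.8 CPM, and Cd72, another inhibitory receptor, at 33.2 ± 28.5 and 29.0 ± 19.4 CPM. In this list only Dok3, an inhibitory adaptor named after its values were seen, had separate groups. Over all tested genes 4.05% had separate groups higher in case and 4.42% lower. Nothing is read from the number of such genes here or in the lists below.

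Kinases and adaptors below the receptor were nearer to even. Of 17 tested members 12 were positive, with a median of 0.24 (0.14 without control 5), and 0 passed. Lyn averaged 190.3 ± 31.5 CPM in case and 160.3 ± 28.5 CPM in control, Syk at 216.7 ± 18.1 and 180.2 ± 26.4 CPM, and Plcg2, the phospholipase that Blnk brings to the receptor, at 103.7 ± 6.89 and 84.4 ± 18.5 CPM, all with overlapping groups. The kinase gene Btk averaged 42.6 ± 0.688 CPM in case and 35.9 ± 4.38 CPM in control. It had separate groups, higher in case (4.05% over all tested genes), as had Pik3cd and Prkcb, both named after their values were seen. Lyn, Syk, Btk and Plcg2 are also used by myeloid cells.

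Other genes of mature B cells had a median near that of the 9 genes. Of 13 tested members 12 were positive, with a median of 0.73 (0.47 without case 6), and 0 passed. Tnfrsf13c, the receptor for the survival factor BAFF, averaged 7.46 ± 1.96 CPM in case and 3.70 ± 1.89 CPM in control. Cxcr5, which guides B cells to follicles, was at 8.16 ± 3.23 and 4.59 ± 1.78 CPM in case and control, Ccr7, a homing receptor of lymphocytes, at 5.79 ± 5.31 and 2.53 ± 1.42 CPM, and the tetraspanin gene Cd37 at 208.9 ± 42.0 and 142.2 ± 33.8 CPM. All 4 had overlapping groups, and Cxcr5 and Ccr7 were highest in case 6, as were Cd22 and Fcer2. Separate groups, all higher in case, were found for Tnfrsf13b, Cd40, Swap70 and Fcmr (listed under its older symbol Faim3), named after their values were seen. Over all tested genes the share was 4.05%, and nothing is read from these genes being separate. The immunoglobulin heavy chain gene Ighm was not matched to a row.

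Regulators of B cell identity were all positive, 14 of 14 tested, with a median of 0.42, and 0 passed. The libraries of Spib and Pax5 did not stand in the order of Cd22. Spib had 196.3, 26.3 and 70.6 CPM in case 5, 6 and 9, against 139.7, 61.9 and 18.6 CPM in control 5, 6 and 10. Pax5, the factor that holds B cell identity, had 19.3, 5.92 and 8.74 CPM in case 5, 6 and 9, against 8.93, 4.72 and 2.47 CPM in control 5, 6 and 10. Both were highest in case 5, and both had overlapping groups, as did Ebf1 (56.1 ± 27.1 CPM in case and 52.2 ± 15.3 CPM in control) and Pou2af1 (38.1 ± 16.5 CPM in case and 31.3 ± 13.9 CPM in control). The median of the list was 0.06 without case 5, 0.16 without control 10 and 0.70 without control 5. Pou2f2, named after its values were seen, had separate groups. Genes of white cells in general were also mostly positive (pan-leukocyte list, 9 of 10, median 0.37). Which cells the 14 regulators came from was not tested.

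Among precursor genes, those of receptor assembly differed widely between libraries. Rag1, which cuts DNA to assemble receptor genes, had 37.1, 0 and 3.78 CPM in case 5, 6 and 9, against 21.4, 6.30 and 1.65 CPM in control 5, 6 and 10. Vpreb1, part of the surrogate light chain, had 8.95, 0.200 and 0.925 CPM in case 5, 6 and 9, against 4.55, 5.75 and 1.37 CPM in control 5, 6 and 10. Dntt, the polymerase that adds bases at receptor gene joints, had 17.4, 2.13 and 2.44 CPM in case 5, 6 and 9, against 15.6, 8.42 and 2.28 CPM in control 5, 6 and 10. Case 6, the library with the highest Cd22, Bank1, Fcer2 and Ms4a1, was the lowest of the 6 for these 3 genes. For Dntt, case 6 was only just below control 10. Case 6 was also the lowest for Rag2, Vpreb2 and Igll1, but not for Il7r, Lef1, Erg, Cd93 or Bst1, all named after their values were seen. Which cells Il7r, Lef1, Erg, Cd93 and Bst1 came from was not tested, and the list median includes them. Of 11 tested precursor genes 5 were positive and 6 negative, with a median of -0.01 and 0 passed. That median was -1.36 without case 5 and -0.36 without control 10, and 0.34 without case 6, 0.17 without case 9, 0.11 without control 5 and 0.26 without control 6. For counting error the 0 of Rag1 allows up to 0.2 CPM in case 6, and a listed 0 needs care in this table, since Hprt1, a gene that every cell uses, had 0 counts in case 5, control 5 and control 6.

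The lists of later B cell stages and of the making of the Cd22 ligand held genes on both sides. The plasma cell list had 5 of 9 tested members positive and a median of 0.18, with Jchain (listed as Igj), which joins IgA and IgM units, at 523.7 ± 200.5 CPM in the case group and 349.4 ± 127.8 CPM in control and Mzb1, a helper of antibody secretion, at 39.6 ± 16.7 and 33.9 ± 30.0 CPM. Its genes with separate groups, both lower in case, were Sdc1, a syndecan proteoglycan (141.6 ± 32.4 against 217.0 ± 14.3 CPM), and Prdm1, a regulator of plasma cell formation (14.7 ± 1.89 against 21.7 ± 6.92 CPM). Both were named after their values were seen, and which cells they came from was not tested. Prdm1 was highest in control 5 (29.6 CPM), the library with the most oral epithelium markers. The median of this list was 0.61 without control 6, 0.07 without case 9, -0.04 without case 6, -0.01 without control 10 and -0.12 without control 5. In the germinal centre list 4 of 6 were positive, with a median of 0.25. Bcl6 and Mef2b of that list, named after their values were seen, had separate groups, higher in case (4.05% over all tested genes). In the list for sialic acid 5 of 9 were positive, with a median of 0.00. St6gal1, the enzyme that makes the sialic acid linkage Cd22 prefers, averaged 56.7 ± 13.2 CPM in case and 56.6 ± 1.10 CPM in control. Cmas, which activates sialic acid and was named after its values were seen, had separate groups, lower in case, at 44.8 ± 2.02 against 55.7 ± 3.88 CPM. In these 3 lists 0 genes passed.

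**Figure D5:**
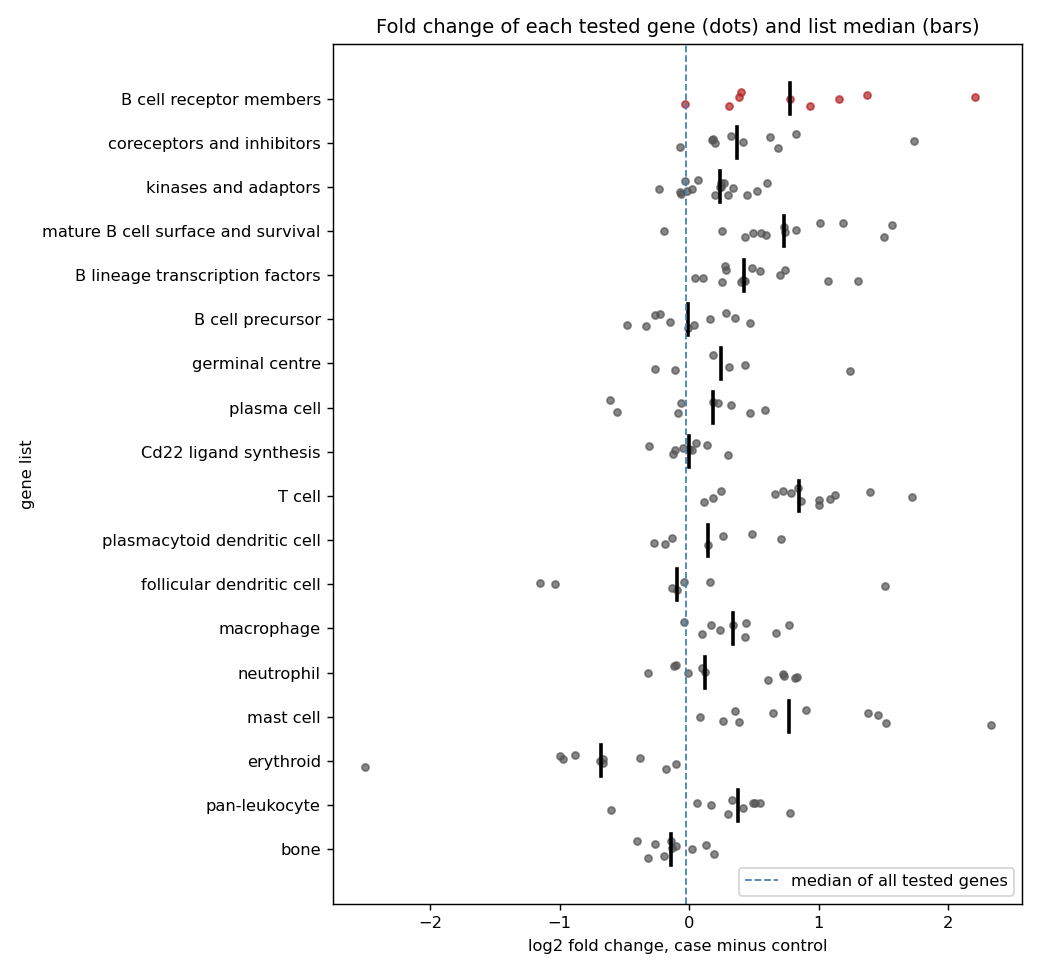
Log2 fold change, case minus control (horizontal axis), of every tested gene (dots) by gene list, with the list medians as black bars and the median of all tested genes, -0.02, as a dashed line. The 9 genes (median 0.78), other mature B cell genes (0.73), T cell genes (0.85) and mast cell genes (0.77) have medians to the right of the line, and erythroid genes (-0.68) to its left.

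Markers of T cells, mast cells and leukocytes in general also had positive medians and those of erythroid cells a negative one, with 0 genes passing, and their part in the values above was not tested. All 14 T cell genes were positive, with a median of 0.85. Their summed level was 311.4, 463.5 and 343.0 CPM in case 5, 6 and 9, against 284.3, 319.2 and 281.2 CPM in control 5, 6 and 10, and none was at 0 in any library. Most of this sum was Cd4, named after its values were seen, so the sum is not read as a level of T cells. Cd4 had 233.7, 270.3 and 197.2 CPM in case 5, 6 and 9, against 219.7, 204.6 and 192.7 CPM in control 5, 6 and 10. Cd3e, a chain of the T cell receptor complex, averaged 9.50 ± 4.59 CPM in case and 4.74 ± 3.18 CPM in control, with case 6 the highest library, as for Cd22. The T cell median was 1.31 without control 6 and 1.24 without case 5, but 0.57 without case 6 and 0.60 without control 5.

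The pan-leukocyte list had 9 of 10 genes positive, with a median of 0.37 and summed levels of 3429 to 5147 CPM in case and 2568 to 4407 CPM in control. Its Ptprc, which encodes the leukocyte antigen CD45, had separate groups at 160.2 ± 16.5 CPM in the case group and 112.6 ± 15.7 CPM in control. All 10 mast cell genes were positive, with a median of 0.77 and summed levels of 98.8 to 199.0 CPM in case and 81.0 to 85.2 CPM in control. Of these, 5 had separate groups, higher in case, against 4.05% over all tested genes. They were Hdc, the gene nearest to Cd22, and Cpa3, Tpsab1, Tpsb2 and Mcpt1l1. Apart from Hdc they were named after their values were seen, and nothing is read from that count. All 10 erythroid genes were negative, with a median of -0.68 and summed levels of 1391 to 14529 CPM in case and 9467 to 16606 CPM in control, case 6 being the lowest. With single libraries left out, the erythroid median was -1.92 without case 5, -0.31 without case 6 and -0.21 without control 5, and the mast cell median 0.49 without case 6. The pan-leukocyte median was 0.25 without case 9, 0.22 without control 5 and 0.60 without control 6.

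Lists for cells other than B cells that can use some of these genes were also read. A sum alone does not show that such cells were present. Runx2, on the plasmacytoid dendritic cell list, is also on the bone list and averaged 80.3 ± 19.5 CPM in case and 88.2 ± 6.38 CPM in control. Siglech of that list was at 3.31 ± 1.69 and 2.77 ± 1.87 CPM. In the follicular dendritic cell list Mfge8 alone was at 269.8 ± 9.62 and 287.8 ± 44.8 CPM. All were named after their values were seen. The macrophage list, whose cells can use Blnk, had 8 of 9 tested genes positive and a median of 0.34, with summed levels of 1225 to 2092 CPM in case and 1185 to 1682 CPM in control. For plasmacytoid dendritic cells 4 of 7 were positive, with a median of 0.14 and summed levels of 336.0 to 440.7 CPM in case and 294.9 to 381.5 CPM in control. The list of follicular dendritic cells, which carry Cr2 and Fcer2, had 2 of 7 positive and a median of -0.09, with summed levels of 477.6 to 588.2 CPM in case and 495.4 to 679.7 CPM in control. Neutrophil genes had 7 of 11 positive and a median of 0.12, with summed levels of 9639 to 21187 CPM in case and 7503 to 21102 CPM in control. These medians changed when single libraries were left out, and among them only that of macrophages kept its sign in all 16 alternatives. That of macrophages was 0.12 without case 6, 0.19 without control 5 and 0.57 without control 6, and that of neutrophils 0.43 without case 5 or control 6, 0.28 without control 10 and -0.05 without control 5. For plasmacytoid dendritic cells it was 0.04 without case 5, -0.03 without case 6 or control 10 and 0.24 without control 5. For follicular dendritic cells it was -0.04 without case 5, -0.03 without control 6, -0.27 without case 9, -0.17 without control 5 and 0.06 without control 10. Over all other genes of these lists, 0 of 184 passed edgeR's test, 32 had an unadjusted p under 0.05 (4.15% over all tested genes), limma-voom called 0 and DESeq2 called 3 (0.131% over all). Of these 184 genes 18 had separate groups higher in case and 5 lower, against 4.05% and 4.42% over all tested genes. The lists were chosen with earlier results of these data known, so nothing is read from these counts.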

How the data were processed

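Per the labels' protocols, RNA was extracted with TRIzol and sequenced single-end from Ion Total RNA-Seq libraries. The deposited table holds raw counts per gene symbol for all 6 libraries, and its whole numbers sum to a different total in each. No aligner, counting program, build, annotation or strand setting is named in the sources used here, so reads of near-identical or overlapping genes could have been split.

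Genes were filtered with filterByExpr, scaled with TMM and tested by quasi-likelihood in edgeR 4.0.16 (R 4.3.3), with the group as the only term and Benjamini-Hochberg adjustment over 16066 genes. Log2 CPM used a prior count of 2. The test was first checked on simulated counts. DESeq2 1.42.0 and limma 3.58.1 were alternatives, with other scalings and filters, a replicate block and libraries left out. The 9 genes and 19 other lists were chosen with earlier results of these data known. Of 221 list symbols 206 were matched by name and 5 by an older symbol, through RefSeq's table. The genes given by value were a set chosen by role, whatever its values, and the 5 genes nearest to Cd22. One gene of that set is not reported here. Others are marked as named after their values were seen. Cd79a was also summed over both of its rows, which was chosen after seeing the data.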

Additional observations from a re-analysis of the deposited data

How the results depend on the processing

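The median log2 fold change of the 9 genes, 0.78, stayed positive in all 16 alternatives, from 0.65 without control 10 to 1.01 without control 6. The number of them with separate groups was 3 to 5, the lowest with library totals. DESeq2 called 21 genes, 3 of them on the lists (Tpsab1 and Mcpt1l1, mast cell proteases, higher in case, and Hbb-b1, a globin, lower in case), all named after their values were seen. Leaving out single libraries gave 0 to 2 genes in edgeR, with 2 without control 5 (LOC103691734 and Rn5-8s, which are on no list, each lower in case), and 0 list genes. In every other edgeR and limma-voom setting 0 genes passed. Cd22, Cd79b, Ms4a1, Bank1, Fcer2 and Cr2 stayed positive in 18 of 18 alternatives each, Blk in 16 and the row named Cd79a in 11, which was -0.68 in limma-voom and -1.02 without both libraries numbered 5. Blnk stayed negative in 14 of 18. Of the 19 list medians 11 kept their sign throughout.

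The numbers 5 and 6 recur in both groups, but the labels do not say that a number marks an animal or a batch. Deviations from the group means correlated across genes at 0.38 for number 5 and 0.136 for number 6. With the number as a replicate block, 0 genes and 0 list genes passed, the median of the 9 genes was 0.70, and Cd22 was at 1.12, Bank1 at 1.38, Blk at -0.16 and the row named Cd79a at -0.81.

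Depth limits the lowest values: Fcer2 rested on 5 counts in control 10 and the row named Cd79a on 5 in case 6. With 3 libraries a group and a common biological coefficient of variation of 0.322, precision is set mainly by the spread between libraries.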
